A study of Mus musculus with 16 samples.

Results

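The genes described here copy the genome and supply its building blocks: 48 of the 25745 genes in the count table, taken by symbol from a fixed list of origin licensing, helicase, polymerase, clamp, histone chaperone and nucleotide synthesis genes, and sorted here into 12 roles. All 48 were found and all 48 passed the filter on low counts. They were read by RNA-seq of 16 libraries from 6DT1, a mammary cancer line of mice of strain FVB/N1. The cells carried either a lentivirus that expresses CLIC4, a chloride intracellular channel protein (libraries 1 to 8), or an empty lentiviral vector (libraries 9 to 16), so that both kinds of cell had been transduced. Of each kind, 4 libraries came from untreated cells (1 to 4 and 9 to 12) and 4 from cells kept for 24 h with 1 µM hydrogen peroxide, H2O2 (5 to 8 and 13 to 16). The sample descriptions instead give a CLIC4 knockout for the empty vector and wild type for the lentivirus. Which account holds is not settled here, so effects of vector and of CLIC4 genotype cannot be told apart. The groups are named by vector below. The labels give neither the promoter of the vector nor whether the libraries of a group were separate cultures, so every p-value speaks of the spread among these libraries alone, which may be technical.

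Replication starts where the origin recognition complex marks the DNA and, with Cdc6 and Cdt1, loads the ring-shaped MCM helicase before S phase. Cdc45 and the GINS complex then switch the helicase on, primase and DNA polymerase alpha lay down primers, and polymerases delta and epsilon, held by the sliding clamp PCNA, extend them. Many of these genes are transcribed together at the start of S phase under E2F transcription factors, and in cultured tumour cells their mRNAs are commonly read as a measure of proliferation.

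The E2F site is the sequence feature most often tied to these genes, and RefSeq promoter windows (GRCm38.p6, 250 bases before to 50 after a start) were found for 40 of the 48. The letters TTTCCCGC, TTTCGCGC, TTTGCCGC and TTTGGCGC were searched on both strands. They occurred in windows of 16 of the 40 members (40.0%), against 2.61% of all 27025 genes with a window. Counted by window, the share was 33.3% for members, 2.26% for all windows and 3.58% for windows whose GC content was at or above the lowest quartile of the members, whose median GC was 61.3% against 52.7% for all. The box CCAAT, searched in the same way, was in 62.5% of the members and 41.1% of all genes, and TTTGAA in 12.5% and 20.2%. Shown are 4 stretches that hold E2F letters and 1 that does not, because their genes carry results described below. All lie before the RefSeq start of their window and outside the exons annotated by GENCODE vM21; the Cdc6 stretch lies inside the GENCODE gene, 181 to 280 bases after its earlier start. Capitals mark the E2F letters on either strand, and each stretch reads 5′ to 3′ on the strand of its gene.
Mcm5: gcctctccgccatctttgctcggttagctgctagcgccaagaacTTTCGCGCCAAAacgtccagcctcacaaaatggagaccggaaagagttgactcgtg
Mcm6: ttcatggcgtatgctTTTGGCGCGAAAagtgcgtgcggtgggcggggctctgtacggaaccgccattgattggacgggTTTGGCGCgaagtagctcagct
Cdc6: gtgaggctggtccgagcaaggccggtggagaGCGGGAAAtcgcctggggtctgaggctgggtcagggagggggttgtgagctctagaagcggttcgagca
Pola1: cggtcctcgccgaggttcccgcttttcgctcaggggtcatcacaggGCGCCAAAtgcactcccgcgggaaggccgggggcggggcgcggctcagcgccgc
Rrm2: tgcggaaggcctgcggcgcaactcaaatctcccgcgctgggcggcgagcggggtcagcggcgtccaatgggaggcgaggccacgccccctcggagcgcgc

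The Mcm5 stretch lies at chr8:75109312-75109411 (plus strand), 197 to 98 bases before the start, and its capitals are a pair of matches on opposite strands that overlap. The Mcm6 stretch at chr1:128359731-128359830 (minus strand) has such a pair and a further match nearer the start. Cdc6 at chr11:98907982-98908081 (plus strand) and Pola1 at chrX:93632240-93632339 (minus strand) have 1 match each, and Rrm2 at chr12:24708141-24708240 (plus strand) has none in the whole window. A match is only a run of letters. The 16 members with a match had a median log2 change between the vectors of 1.28 in untreated cells and the 24 without one had 1.02, with ranges of -0.034 to 2.29 and -0.23 to 2.86; without library 11, which stands apart from its group, the medians were 1.40 and 1.09. The ranges overlapped over most of their length: Rrm2, the member with the largest change, held none of these letters, whereas Orc3, which held 1 match, was not called with all libraries.

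Total counts ran from 47089156 to 61945199 per library. Clic4 itself was lower in empty vector cells. The untreated lentivirus libraries had 225, 244, 222 and 223 CPM (counts per library total, scaled by TMM, which also evens out composition between libraries). Libraries 9 to 12 had 41.5, 41.2, 138 and 44.7 CPM. The log2 change with its SE was -1.79 ± 0.31 (edgeR adjusted p = 2.88e-04), or -2.43 ± 0.052 without library 11. Library 11 stood between the groups for Clic4 and apart from its group elsewhere, with a correlation over genes of 0.925 to 0.926 with its fellows where other libraries of a group reached at least 0.998. Its share of counts in small structural RNA was 0.0723%, and the highest elsewhere was 0.000711%. Changes between the vectors in untreated cells are therefore given with and without it. Its TMM factor was 0.721, against 0.986 to 1.04 elsewhere, so its levels and their place against other libraries depend on that scaling. Places of library 11 below are on the TMM-scaled CPM unless FPKM is named. The deposited FPKM, scaled to transcript length and library total, carry no TMM factor, and library 11 often stood lower on them. Of the epithelial and mesenchymal markers, Krt8, Krt18, Krt19 and Vim were abundant, at 76.2 CPM or more in every library. Fn1 ran from 32.2 to 1321 CPM, with untreated means of 40.3 for lentivirus and 574 for empty vector. Epcam, Cdh1, Krt5, Krt14, Trp63 and Cdh2 stayed at or below 13.0 CPM. The highest of these was Epcam, whose untreated empty vector mean of 3.24 CPM came almost wholly from that highest value. The summed levels of marker lists differed between the vectors. In untreated cells they ran, for lentivirus and then empty vector, from 564 to 618 and 939.8 to 1396 CPM for luminal markers (5 of 5 in the table), 3.90 to 5.02 and 0.149 to 1.43 for basal markers (3 of 3), 2592 to 2652 and 3841 to 4133 for mesenchymal markers (3 of 3), and 77.6 to 82.9 and 223 to 369.9 for immune markers (3 of 5), of which Cd68 carried nearly all and Ptprc was at or near 0. The endothelial sum (3 of 3, mostly Cdh5) ran from 79.9 to 85.1 and from 3.74 to 7.72 CPM, the fibroblast sum (3 of 3) from 11.7 to 12.9 and from 18.4 to 21.7 CPM, and the adipocyte sum (2 of 2) reached at most 0.13 CPM. Their part in the results below was not tested. Exons of 15 members overlap a gene on the opposite strand (Orc1, Orc2, Orc4, Orc6, Mcm7, Cdc45, Gins2, Rfc2, Rfc4, Rfc5, Pole, Fen1, Lig1, Chaf1a and Tk1) and those of 4 a gene on their own strand (Orc5, Mcm7, Pole2 and Rpa1); whether counting used strand is not given in the sources used here, so reads of such neighbours cannot be told apart.

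Empty vector cells held more mRNA of nearly every replication gene than CLIC4 lentivirus cells, treated or not. In untreated cells 43 of the 48 genes were called higher and 0 lower (edgeR quasi-likelihood F test, Benjamini-Hochberg adjusted p under 0.05 over all 14445 genes tested), where 29% of all genes tested were called higher and 24.3% lower. At least 2-fold higher were 26 of the 48, against 12.1% of all genes. The members' median log2 change was 1.13, a 2.19-fold difference, and that of all genes 0.026. In 37 of the 48 the lowest empty vector library lay above the highest lentivirus library, as in 24% of all genes. In 0 the reverse held (25.6%). These counts are on TMM-scaled CPM. Mcm6, Mcm7, Prim1 and Tk1 are among the 37, yet on the deposited FPKM their library 11 lay below every untreated lentivirus library. Together the 48 genes took 0.139 to 0.150% of the counts of an untreated lentivirus library and 0.191% (library 11) to 0.328% of an untreated empty vector library. In bulk RNA, fewer cells in S phase and less of these mRNAs in each cell cannot be told apart.

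Without library 11 the picture was fuller: 46 of 48 genes were called higher (37% of all 14602 genes tested) and 0 lower (37.3%), 30 of them at least 2-fold (10.1%), and 46 had groups that did not overlap (36%). Orc5 and Rpa3 were the members not called. Under H2O2, where no library is shared with the untreated comparison, 42 of 48 were called higher (22.1% of all genes) and 0 lower (20%), 32 at least 2-fold (9.63%), and 47 did not overlap (34.6%); the median log2 change was 1.24 against -0.011. Leaving out library 11, which lends its spread to the shared fit, raised the treated count to 47 (36.6%), with Rpa3 alone not called. Over the 48 members the untreated and treated changes had a Pearson r of 0.930, or 0.989 without library 11. This r is a description across genes, which are not independent replicates.

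**Figure D1:**
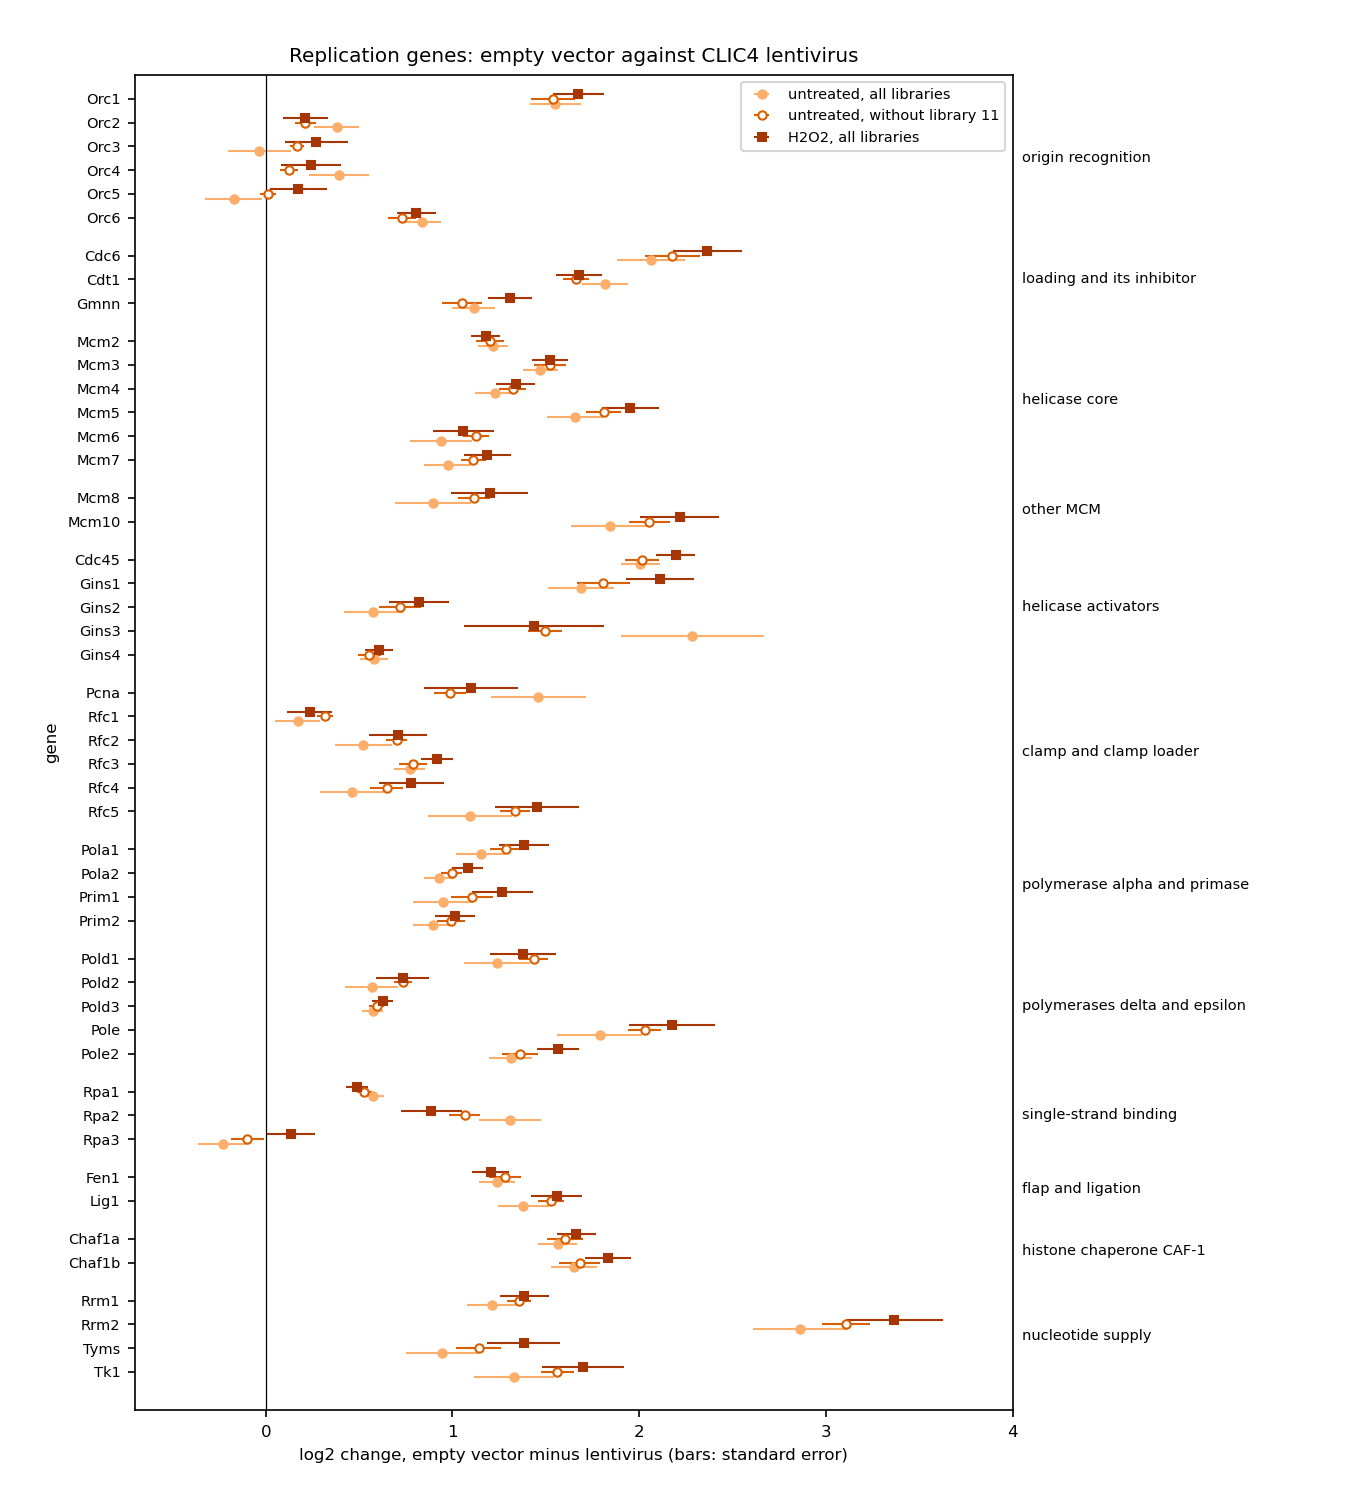
Log2 change from lentivirus to empty vector cells (horizontal axis) for each of the 48 genes, grouped by role, in untreated cells with all libraries (filled circles) and without library 11 (open circles) and in H2O2-treated cells (squares), with standard errors. Rrm2 lies farthest to the right (2.86, 3.11 and 3.37), and Orc2 to Orc5, Rfc1 and Rpa3 lie near 0.

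Within the origin recognition complex, Orc1, the subunit whose level changes through the cell cycle in human cells, differed most. Its levels were 3.61, 2.87, 2.40 and 3.04 CPM in the 4 untreated lentivirus libraries and 9.42, 8.99, 9.02 and 7.51 CPM in libraries 9 to 12. On this scale no empty vector library, library 11 included, fell near the lentivirus range. On the deposited FPKM library 11 lay between the groups, at 2.31 against 0.95 to 1.46 with the lentivirus and 3.20 to 3.61 in its fellows. For Orc1 the log2 change was 1.55 ± 0.14 (SE; edgeR adjusted p = 3.53e-07), 1.54 ± 0.12 without library 11 (adjusted p = 4.32e-10) and 1.67 ± 0.14 under H2O2 (adjusted p = 1.65e-07). Orc6, the subunit that binds the rest of the complex loosely, was also called, at 0.84 ± 0.10 in untreated cells, 0.73 ± 0.075 without library 11 and 0.81 ± 0.10 under H2O2. The core subunits Orc2, Orc3, Orc4 and Orc5 moved far less. In untreated cells edgeR called Orc3 only without library 11. Orc4 stood at the threshold with all libraries and was called when any of libraries 9 to 12 was left out. It was also called with DESeq2 and limma. Under H2O2 edgeR called each core subunit only without library 11 in the fit.

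Orc3 had 76.9, 74.7, 80.7 and 73.3 CPM in lentivirus cells and 87.9, 82.9, 41.1 and 86.5 CPM in empty vector cells, where library 11 lay below every other library. For Orc3 the log2 change was -0.034 ± 0.17 (SE; edgeR adjusted p = 0.874), 0.17 ± 0.036 without library 11 (adjusted p = 3.36e-04) and 0.27 ± 0.17 under H2O2 (adjusted p = 0.222). Its direction thus turned with that library: without it the untreated groups did not overlap, and the fold was 1.12. Orc4 went the other way, with 41.1, 37.2, 40.8 and 40.3 CPM and then 45.0, 42.0, 79.3 and 43.3 CPM, library 11 far above the rest. For Orc4 the log2 change was 0.39 ± 0.16 (SE; edgeR adjusted p = 0.0502), 0.13 ± 0.046 without library 11 (adjusted p = 0.0203) and 0.24 ± 0.16 under H2O2 (adjusted p = 0.250). Orc5, at 28.9, 30.2, 28.3 and 27.9 and 29.1, 29.3, 15.2 and 28.7 CPM, was called in neither untreated fit (log2 -0.17, adjusted p = 0.357; 0.012 and 0.815 without library 11, edgeR). Orc2 was called at 0.38 ± 0.12 (edgeR adjusted p = 0.0159), with library 11 at 39.7 CPM above 25.3 to 28.5 CPM in its fellows; without it the change was 0.21 (adjusted p = 0.00210). Under H2O2 without library 11 in the fit, Orc2 to Orc5 were all called higher, at log2 changes between 0.17 and 0.27.

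The loading factors Cdc6 and Cdt1 and their inhibitor Gmnn were all called higher, by untreated log2 changes from 1.11 to 2.06. Cdc6, the ATPase that joins the origin complex to load the helicase, had 3.73, 2.92, 4.30 and 3.42 CPM in untreated lentivirus cells and 18.0, 17.0, 11.4 and 13.7 CPM in untreated empty vector cells. Treated lentivirus libraries held 2.43, 2.29, 3.35 and 3.41 CPM and treated empty vector libraries 13.0, 15.7, 13.7 and 16.9 CPM. The lowest empty vector value, that of library 11, was still well above every lentivirus value. For Cdc6 the log2 change was 2.06 ± 0.18 (SE; edgeR adjusted p = 4.54e-07), 2.18 ± 0.15 without library 11 (adjusted p = 1.48e-09) and 2.37 ± 0.19 under H2O2 (adjusted p = 1.25e-07). Cdt1, which brings the helicase to the origin, had 16.5, 15.3, 16.6 and 16.5 and then 51.8, 55.3, 75.1 and 46.9 CPM untreated. Treated, it had 14.2, 15.3, 15.4 and 17.1 and 45.1, 53.4, 52.4 and 47.5 CPM. On this scale library 11 was the highest of all 16. On the deposited FPKM it was the lowest of its group, at 27.63 against 29.73 to 33.01. For Cdt1 the log2 change was 1.82 ± 0.12 (SE; edgeR adjusted p = 3.07e-08), 1.66 ± 0.068 without library 11 (adjusted p = 9.81e-14) and 1.68 ± 0.12 under H2O2 (adjusted p = 6.59e-08). Gmnn, geminin, the protein that binds and blocks Cdt1, was higher as well, at 16.0, 16.0, 15.6 and 18.8 against 36.0, 37.9, 40.8 and 28.7 CPM. For Gmnn the log2 change was 1.11 ± 0.12 (SE; edgeR adjusted p = 2.30e-06), 1.05 ± 0.11 without library 11 (adjusted p = 3.66e-07) and 1.31 ± 0.12 under H2O2 (adjusted p = 4.72e-07).

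**Figure D2:**
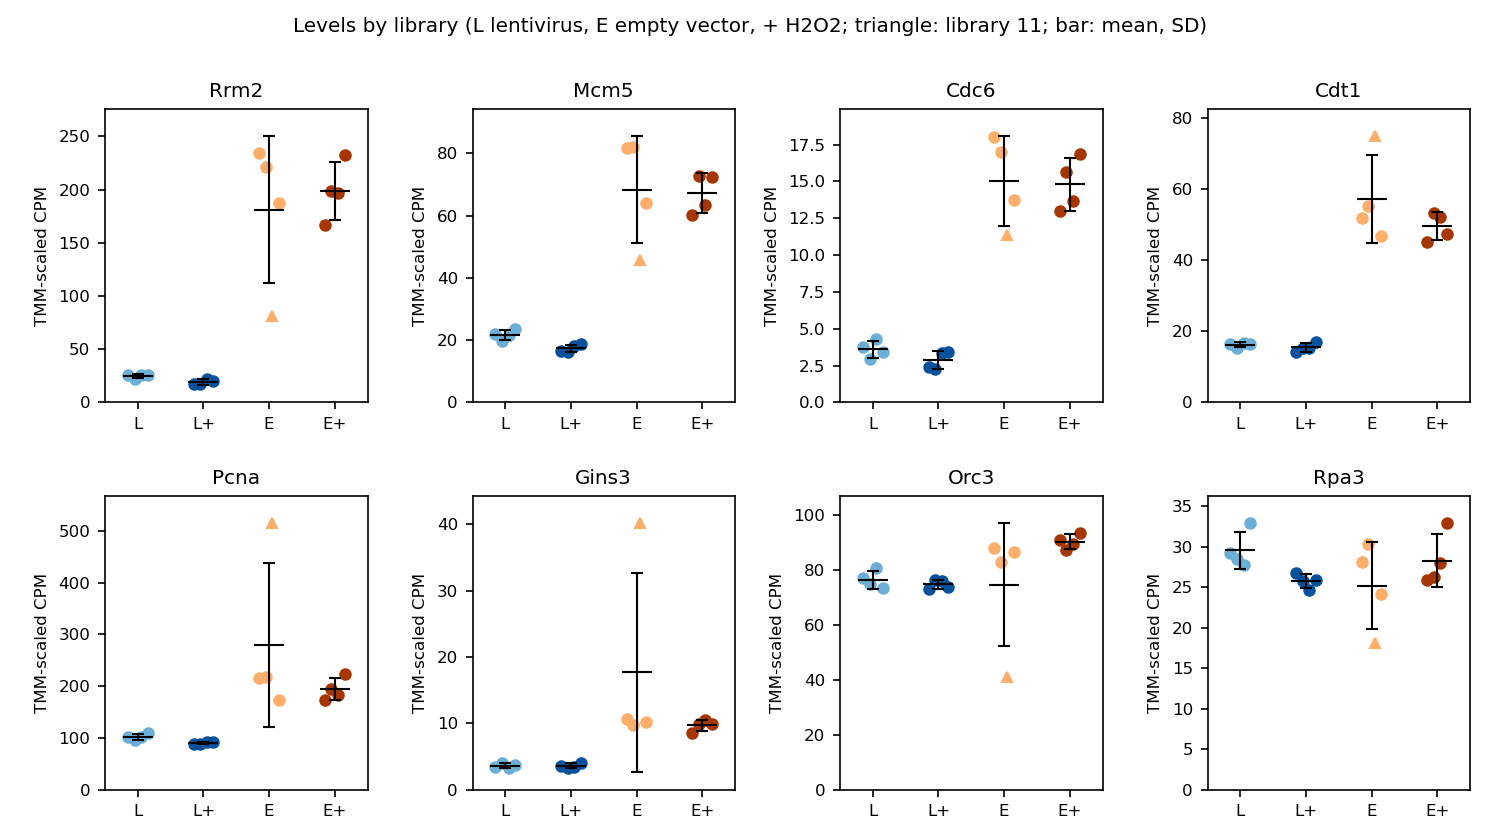
TMM-scaled CPM (vertical axes, from 0) of 8 genes in each library of untreated (L) and treated (L+) lentivirus cells and untreated (E) and treated (E+) empty vector cells, with the mean and SD. Rrm2, Mcm5, Cdc6 and Cdt1 do not overlap between vectors, library 11 (triangle) is far above its group for Pcna and Gins3 and below it for Orc3, and Rpa3 overlaps throughout.

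All 6 subunits of the replicative helicase were called higher in every fit. Mcm2 had 48.7, 43.4, 50.9 and 49.1 CPM in lentivirus cells and 118, 118, 115 and 95.4 CPM in empty vector cells. On that scale library 11 sat with its group. On the deposited FPKM it was the lowest there, at 26.21 against 31.25 to 38.6. For Mcm2 the log2 change was 1.22 ± 0.080 (SE; edgeR adjusted p = 1.75e-08), 1.20 ± 0.074 without library 11 (adjusted p = 6.49e-10) and 1.18 ± 0.080 under H2O2 (adjusted p = 2.44e-08). Mcm3 rose from 34.5, 28.7, 32.2 and 30.8 CPM to 96.1, 97.3, 78.2 and 78.7 CPM. Its change was 1.47 ± 0.10 in untreated cells, 1.52 ± 0.087 without library 11 and 1.52 ± 0.10 under H2O2. Mcm4, at 37.0, 36.2, 39.0 and 36.6 and 98.9, 99.2, 69.4 and 80.8 CPM, changed by 1.23 ± 0.10 in untreated cells, 1.32 ± 0.073 without library 11 and 1.34 ± 0.10 under H2O2. In all 3 the lowest empty vector library was well above the highest lentivirus library.

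Mcm5 differed most of the 6. Its untreated levels were 21.9, 19.7, 21.5 and 23.7 CPM with the lentivirus and 81.7, 82.1, 45.8 and 64.0 CPM with the empty vector, and its treated levels 16.4, 16.3, 18.1 and 18.6 and 60.2, 72.6, 63.5 and 72.5 CPM. Library 11 lay between its fellows and the lentivirus libraries, and the other empty vector libraries all stood at 60.2 CPM or more. For Mcm5 the log2 change was 1.66 ± 0.15 (SE; edgeR adjusted p = 6.21e-07), 1.81 ± 0.10 without library 11 (adjusted p = 2.46e-10) and 1.95 ± 0.15 under H2O2 (adjusted p = 1.25e-07). Mcm6, the most abundant of the set, had 88.7, 81.4, 91.2 and 82.6 CPM and then 201, 195, 96.9 and 167 CPM. On that scale library 11 lay just above the lentivirus range. On the deposited FPKM it lay below that range, at 25.8 against 30.35 to 34.22. The same held for Mcm7, at 24.32 against 27.31 to 30.24 FPKM. For Mcm6 the log2 change was 0.94 ± 0.16 (SE; edgeR adjusted p = 2.84e-04), 1.13 ± 0.068 without library 11 (adjusted p = 4.89e-10) and 1.06 ± 0.16 under H2O2 (adjusted p = 1.14e-04). Mcm7 ran from 58.2, 54.7, 57.3 and 58.1 CPM to 127, 134, 78.8 and 108 CPM, a change of 0.97 ± 0.13 in untreated cells, 1.11 ± 0.066 without library 11 and 1.19 ± 0.13 under H2O2.

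The helicase subunits enter the ring in equal numbers, so their mRNA was also set side by side per transcript length, in the FPKM of the deposited table, which scales fragments to transcript length and library total. In untreated lentivirus cells the mean ran from 8.48 FPKM for Mcm5 to 32.1 FPKM for Mcm6, a spread of 3.79 times. In untreated empty vector cells it ran from 25.3 FPKM for Mcm4 to 61.1 FPKM for Mcm6, or 2.42 times (2.55 without library 11). The treated spreads were 4.75 and 2.61 times. Across all 48 members, the untreated log2 change without library 11 and the log2 mean FPKM in lentivirus cells had a Pearson r of -0.58; both use the same lentivirus libraries, and the value is a description.

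Mcm8 acts with Mcm9 in recombination repair and is no part of the ring. It had 7.02, 5.93, 6.08 and 6.40 CPM and 14.5, 14.1, 6.06 and 12.6 CPM, with library 11 inside the lentivirus range. On the deposited FPKM that library lay below the range, at 1.45 against 1.99 to 2.38. For Mcm8 the log2 change was 0.90 ± 0.20 (SE; edgeR adjusted p = 0.00216), 1.11 ± 0.086 without library 11 (adjusted p = 4.89e-10) and 1.20 ± 0.21 under H2O2 (adjusted p = 2.57e-04). Mcm10, which helps start the loaded helicase, had 7.16, 5.66, 6.61 and 7.13 CPM and 30.0, 28.9, 12.8 and 23.5 CPM, without overlap. Its change was 1.84 ± 0.21 in untreated cells, 2.06 ± 0.11 without library 11 and 2.22 ± 0.21 under H2O2. Of the activators, Cdc45, which joins the ring to make the moving helicase, had 7.82, 6.77, 7.87 and 8.59 CPM and 33.0, 33.6, 30.9 and 27.2 CPM. The smallest adjusted p of all members in the untreated fit was that of Cdc45. For Cdc45 the log2 change was 2.01 ± 0.10 (SE; edgeR adjusted p = 1.76e-09), 2.02 ± 0.090 without library 11 (adjusted p = 7.92e-13) and 2.20 ± 0.11 under H2O2 (adjusted p = 7.70e-10).

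The GINS subunits, which complete the moving helicase, differed in size of change. Gins3 had 3.39, 4.06, 3.31 and 3.73 CPM in lentivirus cells and 10.7, 9.72, 40.2 and 10.2 CPM in empty vector cells, so library 11 alone was 3.94 times the mean of its fellows. For Gins3 the log2 change was 2.29 ± 0.38 (SE; edgeR adjusted p = 2.03e-04), 1.50 ± 0.091 without library 11 (adjusted p = 1.16e-11) and 1.44 ± 0.38 under H2O2 (adjusted p = 0.00643). The untreated fold thus dropped from 4.88 to 2.82 without that library. Gins2 and Gins4 had the smallest changes of the activators, Gins2 with 8.41, 10.7, 8.15 and 11.0 and 15.8, 17.8, 9.93 and 13.5 CPM. Library 11 lay inside the lentivirus range for Gins2, and the groups overlapped through it. On the deposited FPKM that library fell below the range, at 5.68 against 6.76 to 10.15. For Gins2 the log2 change was 0.58 ± 0.16 (SE; edgeR adjusted p = 0.00726), 0.72 ± 0.11 without library 11 (adjusted p = 1.92e-05) and 0.82 ± 0.16 under H2O2 (adjusted p = 6.93e-04). Gins1 changed by 1.69 ± 0.18 in untreated cells, 1.81 ± 0.14 without library 11 and 2.11 ± 0.18 under H2O2, and Gins4 by 0.58 ± 0.074 in untreated cells, 0.56 ± 0.060 without library 11 and 0.61 ± 0.074 under H2O2; both were called in all 3 fits.

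**Figure D3:**
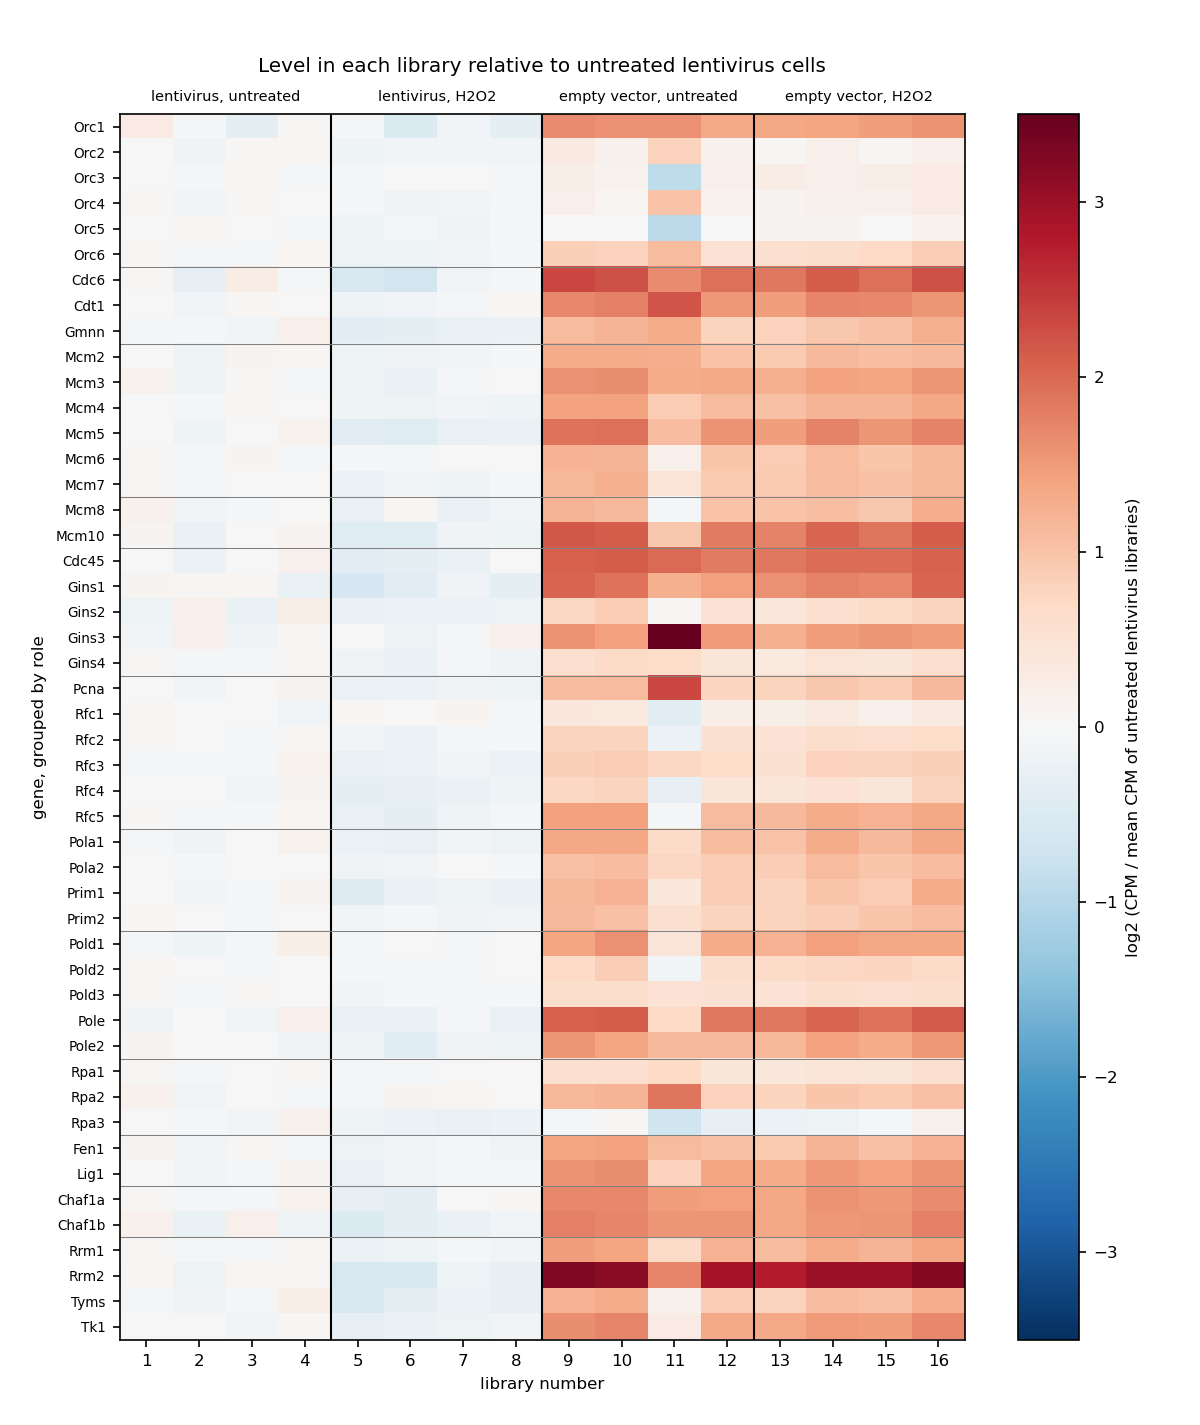
Level of each gene (rows, by role) in each of the 16 libraries (columns), as the log2 ratio of its CPM to the mean of the untreated lentivirus libraries; red is higher and blue lower. Libraries 9, 10 and 12 to 16 look alike and are red in nearly every row, while library 11 is paler for Rrm2, Tk1, Pole and Rfc5 and darker for Gins3 and Pcna.

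Pcna, the sliding clamp, was the most abundant member in library 11. It had 101, 95.9, 102 and 109 CPM with the lentivirus and 215, 217, 515 and 172 CPM with the empty vector untreated, and 88.9, 88.7, 92.7 and 91.3 and 174, 194, 184 and 223 CPM treated. Every empty vector library was above every lentivirus library, and library 11 was 2.56 times the mean of libraries 9, 10 and 12. For Pcna the log2 change was 1.46 ± 0.26 (SE; edgeR adjusted p = 2.80e-04), 0.99 ± 0.087 without library 11 (adjusted p = 1.33e-07) and 1.10 ± 0.25 under H2O2 (adjusted p = 0.00269). Pcna has 2 named pseudogenes in the annotation, so its count may hold reads shared with them. Of the clamp loader subunits, which load the clamp onto DNA, Rfc1 changed least. Rfc1, the large subunit, had 101, 99.3, 98.8 and 92.1 and 126, 124, 75.1 and 115 CPM and overlapped through library 11. For Rfc1 the log2 change was 0.17 ± 0.12 (SE; edgeR adjusted p = 0.245), 0.32 ± 0.043 without library 11 (adjusted p = 1.51e-06) and 0.23 ± 0.12 under H2O2 (adjusted p = 0.140).

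Rfc2, Rfc3, Rfc4 and Rfc5 were called in both vector comparisons. Rfc5 changed most, by 1.09 ± 0.22 in untreated cells, 1.34 ± 0.081 without library 11 and 1.45 ± 0.23 under H2O2, although its level in library 11, 19.2 CPM, lay inside the lentivirus range of 18.8 to 20.6 CPM. Rfc3 changed by 0.77 ± 0.085 in untreated cells, 0.79 ± 0.073 without library 11 and 0.92 ± 0.085 under H2O2, and Rfc2 by 0.52 ± 0.15 in untreated cells, 0.70 ± 0.055 without library 11 and 0.71 ± 0.15 under H2O2. Rfc4 came nearest the threshold, at 0.46 ± 0.17 (edgeR adjusted p = 0.0346), and 0.65 ± 0.087 without library 11 (adjusted p = 2.80e-06). Its untreated call was lost when any of libraries 1 to 4, 9 or 10 was left out. On the CPM scale Rfc2, Rfc4, Rfc5 and Rfc1 were all low in library 11 and Rfc3 was not. That library lay below the untreated lentivirus range for Rfc2 (27.9 against 30.3 to 33.0 CPM) and Rfc4 (12.9 against 14.7 to 16.8 CPM). The untreated groups of both thus overlapped through it. On the deposited FPKM Rfc3 was lowest there too, at 18.09 against 21.81 to 25.78 in its fellows. Rfc5 in library 11 then lay below the lentivirus range, at 5.83 against 8.16 to 12.43 FPKM.

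Polymerase alpha and primase, which together make the RNA and DNA primer, were called in full. Pola1, the catalytic subunit, had 27.7, 26.4, 28.9 and 31.0 CPM and 73.0, 73.4, 45.2 and 61.8 CPM, library 11 lowest of its group but above all lentivirus libraries. For Pola1 the log2 change was 1.15 ± 0.13 (SE; edgeR adjusted p = 5.75e-06), 1.29 ± 0.083 without library 11 (adjusted p = 1.30e-09) and 1.38 ± 0.13 under H2O2 (adjusted p = 9.90e-07). Prim2, the large primase subunit, had 14.3, 13.8, 13.1 and 13.8 and 30.4, 27.9, 20.5 and 23.7 CPM and changed by 0.90 ± 0.11 in untreated cells, 0.99 ± 0.075 without library 11 and 1.01 ± 0.11 under H2O2. Pola2, the accessory subunit, changed by 0.93 ± 0.081 in untreated cells, 1.00 ± 0.056 without library 11 and 1.08 ± 0.082 under H2O2, and Prim1, the catalytic primase subunit, by 0.95 ± 0.16 in untreated cells, 1.11 ± 0.11 without library 11 and 1.27 ± 0.16 under H2O2. Without library 11 these 4 lay between 0.99 and 1.29 on the log2 scale, a narrower range than that of any role with more genes.

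Of the polymerases that extend the primers, Pole, the catalytic subunit of the leading strand enzyme, changed most. It had 9.78, 10.7, 9.96 and 12.1 CPM in lentivirus cells and 45.7, 46.1, 17.1 and 37.9 CPM in empty vector cells. Library 11 held less than its fellows but more than any lentivirus library. On the deposited FPKM it lay just above the untreated lentivirus range, at 2.99 against 2.45 to 2.90, with its fellows at 10.2 to 11.4. For Pole the log2 change was 1.79 ± 0.23 (SE; edgeR adjusted p = 1.71e-05), 2.03 ± 0.089 without library 11 (adjusted p = 2.24e-12) and 2.18 ± 0.23 under H2O2 (adjusted p = 2.92e-06). Its partner Pole2 changed by 1.31 ± 0.11 in untreated cells, 1.36 ± 0.10 without library 11 and 1.57 ± 0.11 under H2O2. Pold1, the catalytic subunit of the lagging strand enzyme, changed by 1.24 ± 0.18 in untreated cells, 1.43 ± 0.079 without library 11 and 1.38 ± 0.18 under H2O2, while its accessory subunits changed less, Pold3 by 0.57 ± 0.056 in untreated cells, 0.59 ± 0.040 without library 11 and 0.63 ± 0.056 under H2O2 and Pold2 as follows. Pold2 had 27.2, 26.6, 25.1 and 26.7 CPM and 43.2, 48.1, 24.9 and 40.4 CPM, overlapping through library 11. For Pold2 the log2 change was 0.57 ± 0.14 (SE; edgeR adjusted p = 0.00388), 0.74 ± 0.050 without library 11 (adjusted p = 6.22e-11) and 0.73 ± 0.14 under H2O2 (adjusted p = 6.93e-04).

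The single-strand binding protein RPA was split. Rpa2, the middle subunit, had 16.2, 13.9, 14.5 and 14.4 CPM and 33.0, 33.5, 53.6 and 25.9 CPM, library 11 highest. For Rpa2 the log2 change was 1.31 ± 0.17 (SE; edgeR adjusted p = 1.63e-05), 1.07 ± 0.083 without library 11 (adjusted p = 2.52e-09) and 0.89 ± 0.16 under H2O2 (adjusted p = 5.15e-04). Rpa1, the large subunit, was called at 0.57 ± 0.060 in untreated cells, 0.53 ± 0.041 without library 11 and 0.49 ± 0.060 under H2O2. Rpa3, the small subunit, had 29.2, 28.5, 27.7 and 32.9 CPM and 28.1, 30.3, 18.1 and 24.1 CPM untreated, and 26.7, 25.7, 24.6 and 25.9 and 25.8, 26.2, 28.0 and 32.9 CPM treated. Its groups overlapped in both comparisons, the one member of which that was true under H2O2. For Rpa3 the log2 change was -0.23 ± 0.13 (SE; edgeR adjusted p = 0.153), -0.10 ± 0.086 without library 11 (adjusted p = 0.317) and 0.13 ± 0.13 under H2O2 (adjusted p = 0.454). Rpa3 was called in none of these fits, and Orc5 only in the treated fit without library 11.

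Fen1, which trims the flaps of lagging strand fragments, had 16.4, 14.3, 15.7 and 14.6 CPM and 39.5, 40.3, 33.0 and 31.2 CPM. Its change was 1.24 ± 0.10 in untreated cells, 1.28 ± 0.086 without library 11 and 1.20 ± 0.10 under H2O2. Lig1, the ligase that joins the fragments, had 25.4, 23.8, 24.6 and 27.1 CPM and 74.4, 77.3, 44.5 and 66.2 CPM. Its change was 1.38 ± 0.14 in untreated cells, 1.53 ± 0.070 without library 11 and 1.56 ± 0.14 under H2O2. Neither overlapped between the vectors. The CAF-1 subunits, which put histones on the new DNA behind the clamp, moved by like amounts: Chaf1a, at 15.2, 14.3, 14.1 and 16.1 and 47.9, 47.8, 40.9 and 40.1 CPM, by 1.56 ± 0.10 in untreated cells, 1.60 ± 0.094 without library 11 and 1.66 ± 0.10 under H2O2. Chaf1b, at 7.25, 5.54, 7.44 and 5.92 and 22.3, 21.6, 19.2 and 19.1 CPM, changed by 1.65 ± 0.12 in untreated cells, 1.68 ± 0.11 without library 11 and 1.83 ± 0.12 under H2O2. On the CPM scale library 11 sat with its group for Chaf1a, Chaf1b and Fen1. On the deposited FPKM it was the lowest of its group for each. It had 5.40 against 8.53 to 9.46 for Chaf1a, 8.29 against 11.56 to 13.62 for Chaf1b and 11.84 against 16.38 to 20.77 for Fen1.

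The nucleotide supply genes held the largest difference. Rrm2, the small subunit of ribonucleotide reductase, the enzyme that makes deoxyribonucleotides, had 25.9, 22.0, 25.9 and 25.7 CPM in untreated lentivirus cells and 234, 221, 81.5 and 187 CPM in untreated empty vector cells. Treated, it had 16.9, 17.3, 22.3 and 20.4 and 167, 199, 197 and 233 CPM. Library 11 held 0.380 times the mean of its fellows and was still above every lentivirus library. For Rrm2 the log2 change was 2.86 ± 0.25 (SE; edgeR adjusted p = 4.49e-07), 3.11 ± 0.13 without library 11 (adjusted p = 1.15e-10) and 3.37 ± 0.26 under H2O2 (adjusted p = 1.06e-07). That is 7.28-fold with all libraries, 8.62-fold without library 11 and 10.3-fold under H2O2. Rrm1, the large subunit, had 80.0, 73.9, 75.6 and 79.6 CPM and 212, 201, 123 and 179 CPM, and changed by 1.21 ± 0.13 in untreated cells, 1.36 ± 0.063 without library 11 and 1.39 ± 0.13 under H2O2.

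Tyms, thymidylate synthase, had 14.6, 14.0, 14.3 and 17.5 CPM and 34.9, 36.7, 16.9 and 27.6 CPM; library 11 fell inside the lentivirus range. For Tyms the log2 change was 0.95 ± 0.19 (SE; edgeR adjusted p = 9.43e-04), 1.14 ± 0.12 without library 11 (adjusted p = 1.02e-06) and 1.38 ± 0.19 under H2O2 (adjusted p = 4.44e-05). A named pseudogene of Tyms is in the annotation. Tk1, the thymidine kinase of the salvage path, had 26.3, 26.4, 24.6 and 27.2 CPM and 80.7, 85.0, 31.6 and 65.2 CPM. On that scale library 11 lay just above the lentivirus range. On the deposited FPKM it lay below it, at 21.05 against 22.69 to 24.76. For Tk1 the log2 change was 1.33 ± 0.22 (SE; edgeR adjusted p = 1.49e-04), 1.56 ± 0.088 without library 11 (adjusted p = 3.73e-10) and 1.70 ± 0.22 under H2O2 (adjusted p = 1.84e-05). Without library 11, all 4 supply genes were at least 2.20-fold higher in empty vector cells.

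Partner genes of a complex did not always move by the same amount, and 6 pairs, chosen after their values were seen, were compared as ratios of FPKM. Rrm2 stood at 0.598, 0.562, 0.663 and 0.631 times Rrm1 in untreated lentivirus libraries and 2.10, 2.03, 1.12 and 1.86 times in libraries 9 to 12. The means were 0.614 ± 0.043 and 1.78 ± 0.45 (SD, n = 4), or 1.99 ± 0.12 without library 11, and under H2O2 0.505 ± 0.051 and 1.96 ± 0.16. No library overlapped. Pold1 over Pold2 ran from 0.322 ± 0.016 to 0.526 ± 0.056 untreated (0.528 ± 0.068 without library 11) and from 0.352 ± 0.046 to 0.546 ± 0.062 treated, also without overlap. Cdt1 over Gmnn ran from 0.410 ± 0.070 to 0.675 ± 0.060 untreated, or 0.665 ± 0.069 without library 11. Its treated values, 0.484 ± 0.056 and 0.635 ± 0.073, lay closer. Pole over Pole2 was 0.502 ± 0.071 and 0.669 ± 0.22, with library 11 low at 0.353; without it the empty vector mean was 0.774 ± 0.069. Prim1 over Prim2 was 1.32 ± 0.090 and 1.34 ± 0.20 (1.43 ± 0.092 without library 11), and Chaf1a over Chaf1b 0.809 ± 0.11 and 0.693 ± 0.036 (0.706 ± 0.028). With 4 against 4 libraries a 2-sided exact permutation test cannot go below p = 0.0286, which Rrm2 over Rrm1 and Pold1 over Pold2 reached in both treatments, Cdt1 over Gmnn untreated and Pole over Pole2 treated. Adjusted over the 12 tests the smallest p was 0.0571, so none passed. With that floor, and with pairs picked on the same values, these tests cannot decide whether the ratios differ.

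**Figure D4:**
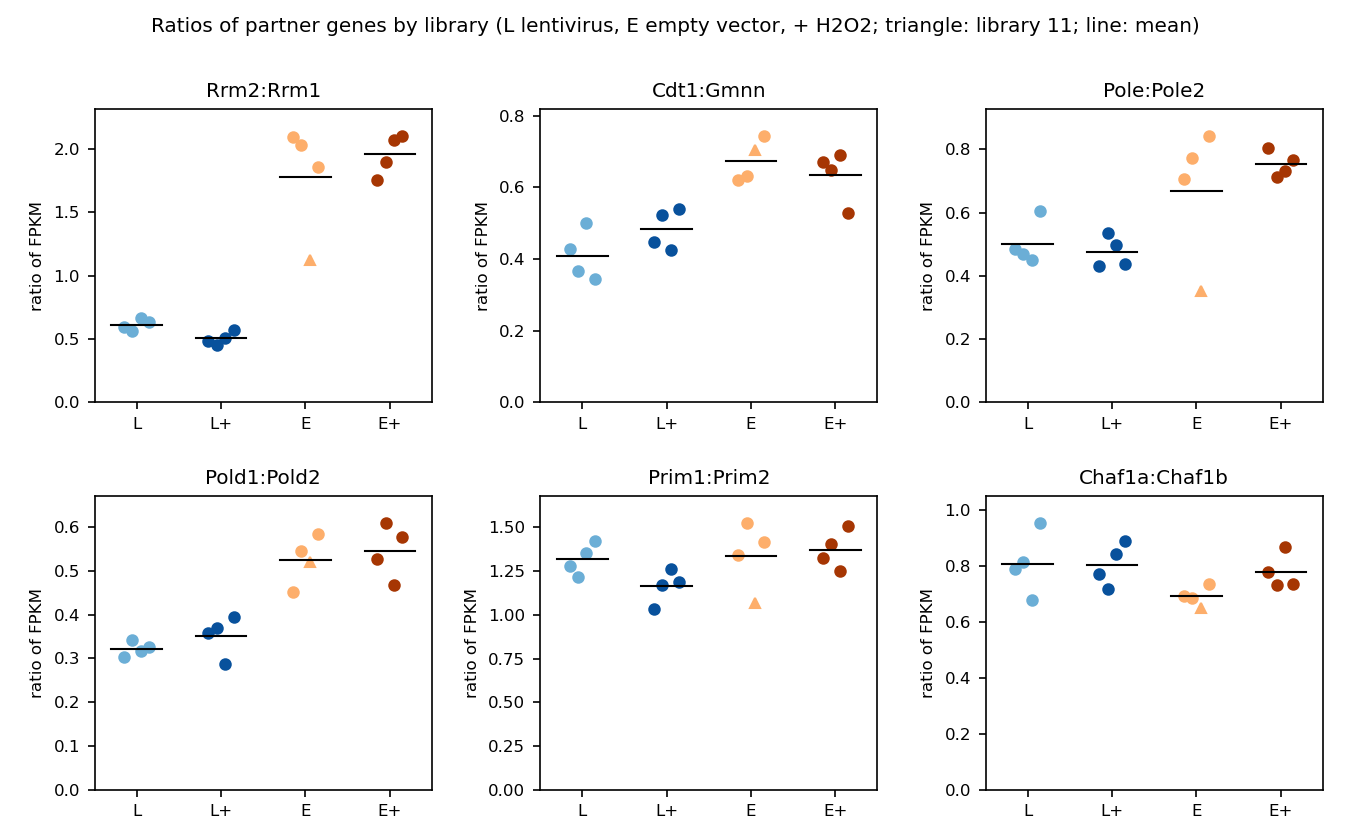
Ratio of the FPKM of partner genes (vertical axes, from 0) in each library of untreated (L) and treated (L+) lentivirus and untreated (E) and treated (E+) empty vector cells, with the group mean as a line. Rrm2 over Rrm1 lies at 0.614 and 0.505 in the lentivirus groups and 1.78 and 1.96 in the empty vector groups, while Prim1 over Prim2 and Chaf1a over Chaf1b overlap between the untreated groups.

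H2O2 moved these genes far less than the vector did. In lentivirus cells 0 of the 48 were called with all libraries (0% of all genes in either direction), 4 had an unadjusted p under 0.05 (1.77% of all genes), and 46 of 48 log2 changes lay below 0, as did 49.8% of all genes. The median change was -0.13 against 0 for all genes. Treated libraries were all below untreated ones for 15 of the 48 (6.62% of all genes). Tested without library 11 in the fit, 0 were still called, and 19 had an unadjusted p under 0.05 (39.6%, against 14.6% of all genes). Rrm2 had the lowest value, -0.37 ± 0.24, followed by Gins1 (-0.34), Tyms (-0.33), Cdc6 (-0.32), Mcm5 (-0.32) and Gmnn (-0.30). For Mcm5 the treated libraries ran from 16.3 to 18.6 CPM and the untreated from 19.7 to 23.7 CPM; its edgeR adjusted p was 0.191 without library 11. When the lentivirus groups were fitted alone, Gmnn, Mcm5, Pcna and Rfc4 were called lower, at log2 changes of -0.29, -0.32, -0.17 and -0.24, where that fit called 0.736% of all 13727 genes tested lower.

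In empty vector cells 0 members were called by edgeR with all libraries (0% of all genes) and 3 had an unadjusted p under 0.05 (14.7% of all genes). The sign followed library 11: 21 of 48 changes lay below 0 with it (47.3% of all genes) and 43 without it (55.9%), with medians of 0.041 and -0.078. The farthest values with all libraries, Gins3 at -0.86 and Pcna at -0.53, were -0.070 and -0.058 without it. Without library 11 the changes ran from -0.19 (Fen1) to 0.072 (Orc3), 0 were called (0.123% of all genes were called higher and 0.116% lower), and 1 had an unadjusted p under 0.05 (13.7%). Groups overlapped for all 48 members with all libraries (3.25% of all genes did not overlap and were higher, 3.68% lower). DESeq2 called 0 of the 48 in either response. It called 0.235% of all genes higher and 0.104% lower in empty vector cells, and 0% and 0.00692% in lentivirus cells. The difference between the responses of the vectors was called for 0 members (0% of all genes), with a smallest adjusted p of 0.658, or 0.170 without library 11 (edgeR); 0 members had an unadjusted p under 0.05 with all libraries (5.95% of all genes) and 2 without library 11 (16.4%). A p that misses the threshold does not show that the responses were alike.

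**Figure D5:**
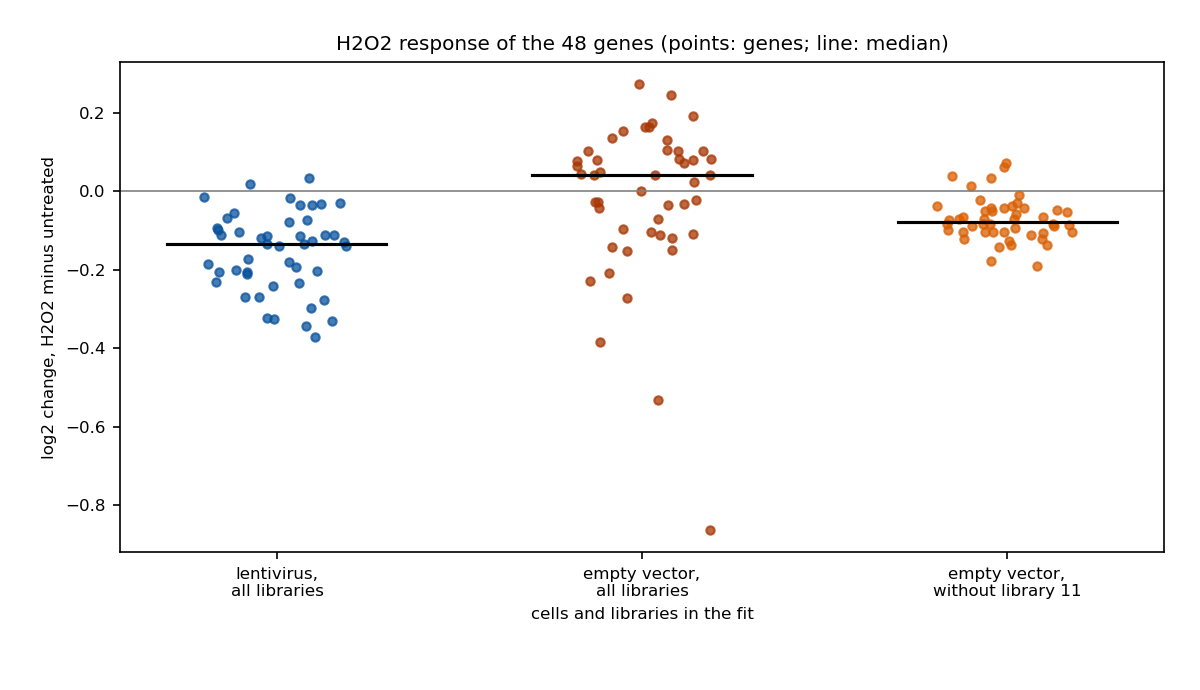
Log2 change with H2O2 (vertical axis) of each of the 48 genes in lentivirus cells and in empty vector cells with and without library 11; points are genes and lines medians. The medians are -0.13, 0.041 and -0.078, and the spread in empty vector cells narrows when library 11 is left out.

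Genes near the members in function were read from further lists, counted in the same untreated fit where 29% of all genes were higher and 24.3% lower (37% and 37.3% without library 11). In square brackets after a change stands its value without library 11. Of 24 origin firing and fork factors, 19 were called higher and 2 lower (22 and 2 without library 11), with a median log2 change of 0.99. Recql4, a helicase needed to start origins, had 1.41, 1.50, 1.56 and 2.05 and 6.00, 5.93, 8.16 and 5.69 CPM and changed by 1.99 ± 0.15 [1.86]. Mtbp, which helps to fire origins, changed by 0.92 ± 0.084 [0.94], Dbf4, the activator of the Cdc7 kinase, by 0.90 ± 0.090 [0.95], and Donson, a factor in helicase assembly, by 1.28 ± 0.13 [1.16]. The 2 lower ones were Mcm9, the partner of Mcm8, at -0.49 ± 0.18 [-0.28], and Pole4, a histone-fold subunit of polymerase epsilon, at -0.41 ± 0.076 [-0.36].

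Nucleotide synthesis outside the members was mixed, with 11 of 29 genes higher and 3 lower (20 and 6 without library 11) and a median of 0.19, or 0.36 without library 11. Dck, deoxycytidine kinase, changed by 0.84 ± 0.11 [0.94] and Nme1, a nucleoside diphosphate kinase, by 0.68 ± 0.082 [0.71]. Samhd1, the enzyme that breaks down deoxyribonucleotides, was lower, at 122, 123, 127 and 116 against 96.2, 95.5, 83.4 and 97.5 CPM (-0.39 ± 0.056, and -0.34 without library 11). Nme2, at -0.30 ± 0.12 [-0.34], and Impdh2, an enzyme of guanine nucleotide synthesis, at -0.18 ± 0.060 [-0.11], were lower too.

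Of 12 chaperone and chromatin copying genes 9 were higher and 0 lower (10 and 1 without library 11). Dnmt1, the DNA methyltransferase that copies methylation, changed by 1.27 ± 0.078 [1.33], its cofactor Uhrf1 by 1.82 ± 0.16 [1.99], and the histone chaperones Asf1b and Nasp by 1.37 ± 0.13 [1.50] and 1.21 ± 0.12 [1.08]. Of 25 E2F, pocket protein and S phase cyclin genes 18 were higher and 1 lower (21 and 2 without library 11). Cdk2, the kinase that cyclin E activates, changed by 0.81 ± 0.068 [0.78], and the repressive family members E2f7 and E2f8 by 2.05 ± 0.15 [1.90] and 2.44 ± 0.11 [2.41]. Cyclin E1, Ccne1, was higher by 2.55 ± 0.11 [2.54]. The lower one, Rbl2, a pocket protein of resting cells, changed by -0.21 ± 0.076 [-0.13]. Of 16 checkpoint and fork repair genes 10 were higher and 0 lower (14 and 1 without library 11), among them Exo1 (1.52 [1.47]), a DNA exonuclease, the checkpoint kinase Chek1 (1.37 [1.45]), and Fancd2 (1.79 [2.07]) and Fanci (1.41 [1.66]), which act together in crosslink repair.

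Replication-dependent histone genes were called in both directions. Of 65 listed, 20 passed the filter; 3 were called higher and 4 lower, and 1 and 9 without library 11, where their median went from 0.023 to -0.70; the 9 lower are read against 37.3% of all genes. Hist1h1c, a linker histone, changed by -0.93 ± 0.23 [-0.70], Hist1h1d by 1.28 ± 0.26 [1.10], Hist2h2be by -1.07 ± 0.18 [-1.26] and Hist3h2a by -2.27 ± 0.16 [-2.26]. Most such mRNAs carry no poly(A) tail, and whether these libraries were made by poly(A) selection is not given in the sources used here. In the last list, of 14 G1 and growth regulators, 10 were tested and 5 were higher and 1 lower (8 and 2 without library 11). Mki67, the proliferation antigen Ki-67, changed by 1.16 ± 0.17 [1.33], Ccnd3, cyclin D3, by 1.19 ± 0.16 [0.92], and the kinase inhibitors Cdkn2d and Cdkn1a by 1.70 ± 0.12 [1.54] and 1.38 ± 0.20 [1.01]. Cdkn1b, the inhibitor p27, was lower, at -0.52 ± 0.13 [-0.73].

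The members did not all stand to the same side in library 11. On the TMM-scaled CPM, against the mean of libraries 9, 10 and 12 and with 0.5 added to each, 12 of the 48 were higher by any amount (44.9% of all genes), 2 were raised 2-fold or more (15%) and 7 lowered as much (17.4%). On the deposited FPKM, which carry no TMM factor, 6 were higher (31.5%), 1 was raised 2-fold or more (7.91%) and 21 were lowered as much (27.4%). On the CPM scale Gins3 and Pcna led on the high side, followed by Orc4 (1.83 times) and Rpa2 (1.74 times). Rrm2, Rfc5 (0.389 times), Pole (0.395 times) and Tk1 (0.411 times) were lowest, and Mcm2 (1.04 times) sat with its fellows. What set library 11 apart was not tested.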

How the data were processed

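RNA was sequenced from 16 libraries of 6DT1 cells, 4 per group. The authors deposited whole-number counts per gene for 25745 genes and, in a second table, FPKM per gene for 25372 genes. Per the submitters' processing notes, cutadapt, STAR and RSEM were used with the genome build mm10; the sources used here give no versions, annotation, strandedness or rounding of RSEM estimates. Libraries were grouped by title, and the columns were matched by title.

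The deposited counts were tested in edgeR 4.0.16, run in R 4.3.3, by quasi-likelihood F: 1 robust fit of all 16 libraries, a coefficient per group, TMM scaling and filterByExpr, which left 14445 genes (14602 without library 11). A gene was called where its p, adjusted over all genes tested by Benjamini-Hochberg, was under 0.05. Standard errors are the log2 change over the square root of F. Levels are TMM-scaled CPM computed from the counts. The deposited FPKM served for ratios between genes, tested with 2-sided exact permutation tests. The edgeR fit was also run on simulated counts with known changes. Those had the same dispersion in every library and no outlier, so they do not show how the fit behaves with library 11. Alternatives used DESeq2 1.42.0 and limma 3.58.1.

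The members, the further lists and the pairs were chosen with earlier results of these data known. Values in every library are given for the members with the largest and smallest untreated change of each role, for the helicase core, loading, clamp and supply genes and for members whose call departs from their role. From each further list up to 4 genes with the smallest adjusted p are named, and those that moved against most of the list; a gene this rule picks from the nucleotide synthesis list is not reported here. Promoter windows are from RefSeq (GRCm38.p6), and gene positions from GENCODE vM21 on mm10. Libraries within a group differed by more than sampling noise.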

Additional observations from a re-analysis of the deposited data

Results flagged for a closer look

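Among 192 combinations of a member and a group, 11 had a library that stood far from the other 3 of its group, by Dixon's test on the gap to the nearest library; chance flags about 1 in 20 groups. Library 11 accounted for 5 of them: Pcna at 515 CPM, Orc4 at 79.3 CPM and Gins3 at 40.2 CPM were high, and Orc3 at 41.1 CPM and Orc5 at 15.2 CPM were low. In library 12, Mcm2 was low at 95.4 CPM. In untreated lentivirus cells Cdt1 at 15.3 CPM and Rrm2 at 22.0 CPM were low in library 2, and Gmnn at 18.8 CPM and Rfc3 at 16.1 CPM were high in library 4. In treated lentivirus cells Pole was high in library 7, at 10.2 CPM.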

How the results depend on the processing

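The count of members higher in untreated empty vector cells was 43, and 38 to 46 under the other settings tried. With the share of all genes called higher in the same fit in brackets, it was 43 with RLE size factors (29.8%), 42 without a count filter (16%), 38 with the compared groups alone (17.6%), 44 with DESeq2 (29.5%), 38 to 39 with limma on log2 FPKM (12% to 22.6%) and 46 with limma voom and library weights (37.5%). The treated count, 42, ran from 42 to 47 (11.8% to 37.5% of all genes). Leaving out each library gave 42 to 46 higher untreated members (25.1% to 37% of all genes) and 0 to 1 lower (Rpa3, without library 10). It gave 42 to 47 higher treated members (19.7% to 36.6%). In those fits 0 members were called for H2O2 or for the difference of responses. At most 0.123% of all genes were then called in either direction. Fitting the lentivirus groups alone gave 4 members lower with H2O2 in place of 0, where 0.736% of all genes were called lower. Orc3, at -0.034 and not called, was 0.17 and called with library weights, and ran from -0.12 to 0.17 over the fits that leave out each library, with 0.17 and a call without library 11; other changes of sign among values called in neither fit are not counted. The calls of Rfc4, Gins2, Rfc2, Pold2, Rfc5, Mcm8 and Orc2 were lost under at least 1 alternative in untreated cells. No paired analysis was possible because the titles number the libraries 1 to 16, so that no number is shared between groups. The p-values rest on 4 libraries per group, whose independence the labels do not state; library 11 raises the common spread (biological coefficient of variation 23.1% with it and 5.28% without).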
